A study of Mus musculus with 32 samples.

Results

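The genes described here are 10 enzymes of the tricarboxylic acid (TCA) cycle and their cytosolic counterparts: Cs, Idh1, Idh2, Idh3a, Idh3b, Idh3g, Ogdh, Fh1, Mdh1 and Mdh2. They were taken by gene symbol, through the Ensembl identifier of each row, and all 10 were found among the 56953 genes of the count table. All 10 passed the filter on low counts, which left 14427 genes for testing. RNA was sequenced from macrophages of the mouse, differentiated from bone marrow of the hind leg with L929 cell supernatant as a source of M-CSF, their growth factor. The labels give the background C57BL/6J for every library, mice of 8 to 12 weeks, and 2 genotypes, Acod1 WT and Acod1 KO. Acod1, also called Irg1, encodes the enzyme that makes itaconate from cis-aconitate, an intermediate of the same cycle. Each genotype was left untreated (control) or treated for 24 h with 100 nM dexamethasone, a synthetic glucocorticoid (dex), with 100 ng of LPS, a bacterial cell wall component, or with both (dex+LPS), and each of the 8 groups held 4 libraries. The labels name a commercial C57BL/6J source and Irg1+/+ and Irg1-/- mice of another supplier, and do not say which source gave the WT libraries, whether replicates came from separate mice, or the volume for the LPS amount. The p-values therefore set differences between groups against the spread of libraries within groups, estimated over all 32 libraries together. That spread may in part be technical.

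In the cycle, citrate synthase (Cs) joins acetyl-CoA to oxaloacetate. The NAD-dependent isocitrate dehydrogenase is built from the catalytic subunit Idh3a and the subunits Idh3b and Idh3g, and the 2-oxoglutarate dehydrogenase complex holds Ogdh as its first enzyme. Fumarase (Fh1) makes malate, and mitochondrial malate dehydrogenase (Mdh2) returns it to oxaloacetate. Idh1 in the cytosol and Idh2 in mitochondria make NADPH from isocitrate, and Mdh1 is the cytosolic malate dehydrogenase that works with Mdh2 in the malate-aspartate shuttle. Macrophages activated with LPS are known for a rewired cycle in which citrate and succinate build up and itaconate is made.

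The 10 genes lie on 8 chromosomes. In the coordinates of the deposited table, Mdh1 lies at chr11:21506692-21522367 on the minus strand with 9 merged exons, and Mdh2 at chr5:135807334-135819252 on the plus strand, also with 9. Idh3a lies at chr9:54493618-54511945 on the plus strand with 11 merged exons, and Idh1 at chr1:65197775-65225659 on the minus strand with 13. Reads were counted over exons without strand, so reads of overlapping genes on opposite strands cannot be told apart. Exons of Idh3b shared 5 bases with Nop56, those of Mdh1 shared 52 bases with Wdpcp, and those of Cs shared 285 bases with an unnamed gene on the other strand. The other 7 genes had no such overlap. The shared stretches are short beside the summed exon lengths of 3422, 2662 and 5779 bases.

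The upstream sequences of Mdh1 and Mdh2, which moved in opposite directions with LPS, and of Ogdh and Idh3g, are shown because 3 of the 4 held a motif that was searched. They are the 250 bases before the start site, 5′ to 3′ on the gene's strand, from RefSeq on GRCm38.p6, which is not the build of the deposited coordinates. Capitals mark ACGTG, the core of the hypoxia response element, on either strand. The windows are chr11:21571935-21572184 on the minus strand for Mdh1, chr5:135778399-135778648 on the plus strand for Mdh2, chr11:6291347-6291596 on the plus strand for Ogdh and chrX:73786898-73787147 on the minus strand for Idh3g.
Mdh1: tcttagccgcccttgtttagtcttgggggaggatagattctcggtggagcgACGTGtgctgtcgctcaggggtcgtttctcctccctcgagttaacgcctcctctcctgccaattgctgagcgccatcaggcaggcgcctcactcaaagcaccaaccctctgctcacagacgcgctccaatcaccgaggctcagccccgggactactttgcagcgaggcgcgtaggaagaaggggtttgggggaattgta
Mdh2: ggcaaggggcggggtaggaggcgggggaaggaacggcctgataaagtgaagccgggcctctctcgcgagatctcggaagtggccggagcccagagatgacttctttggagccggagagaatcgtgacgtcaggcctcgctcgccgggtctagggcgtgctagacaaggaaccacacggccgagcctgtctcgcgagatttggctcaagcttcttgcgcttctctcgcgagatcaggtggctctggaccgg
Ogdh: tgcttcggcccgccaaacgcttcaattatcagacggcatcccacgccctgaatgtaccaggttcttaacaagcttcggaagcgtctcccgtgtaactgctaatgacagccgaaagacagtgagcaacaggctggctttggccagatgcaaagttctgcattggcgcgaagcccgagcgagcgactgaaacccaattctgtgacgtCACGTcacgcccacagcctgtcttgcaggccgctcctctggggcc
Idh3g: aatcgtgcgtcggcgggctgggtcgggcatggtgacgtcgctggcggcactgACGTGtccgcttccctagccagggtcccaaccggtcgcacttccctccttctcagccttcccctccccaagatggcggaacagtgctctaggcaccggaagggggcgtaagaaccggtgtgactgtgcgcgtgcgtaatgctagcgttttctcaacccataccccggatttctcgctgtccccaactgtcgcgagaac
Of the 10 genes 9 had a window, Idh3a having none, and the first window of each was read. The match lay 199 bases before the start site in Mdh1, 45 in Ogdh and 198 in Idh3g. ACGTG was found in 3 of the 9 windows, beside 16.6% of all 32851 windows of this length. The glucocorticoid receptor half-site AGAACA, present in 16.1% of all windows, was in none of the 9 first windows, and a second window of Idh1 held it 223 bases before that start site. The estrogen-related receptor half-site AAGGTCA, present in 4.08% of all windows, was in none of the 9. These 3 motifs were searched on both strands and none contains another. A match is a run of letters in this window and says nothing of binding.

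Library totals ran from 17559079 to 25049200 counts, and the 10 genes had between 386 and 9950 counts in each library. Levels are given as CPM, counts rescaled so that libraries of unlike depth compare, on library sizes adjusted by the trimmed mean of M values (TMM), with the SD over 4 libraries. The 8 macrophage markers (Csf1r, Adgre1, Cd68, Itgam, Mertk, Fcgr1, Lyz2 and Spi1) were present in every group and summed to between 15210 CPM and 30274 CPM per library. The summed markers of neutrophils ranged from 11.1 CPM to 98.9 CPM and those of B cells from 0.17 CPM to 106.9 CPM, with Mpo and Ms4a1 at 0 in at least 1 group each. These lists moved with the treatments. The B cell markers were at a mean of 102.9 CPM in WT control, 53.7 CPM in WT dex, 0.52 CPM in WT LPS and 3.41 CPM in WT dex+LPS, and at 82.7, 45.2, 0.65 and 1.45 CPM in the same groups of KO. The neutrophil markers were at 15.4, 96.1, 70.2 and 28.2 CPM in WT and at 12.2, 86.4, 50.5 and 38.7 CPM in KO, in the same order of groups. The part of either list in the results was not tested. Markers of fibroblasts, erythroid, mast and dendritic cells, and of T and NK cells, were at or under 25.8 CPM. The labels do not say which exons the knockout removed, and Acod1 counts therefore do not check the genotype: WT LPS libraries held 6483 ± 249 CPM and KO LPS libraries 4995 ± 133 CPM (SD, n = 4). All WT libraries were sequenced in lane 3, whereas all KO libraries with LPS, alone or with dexamethasone, were in lane 2. KO control replicate 1 came from merged files with no lane named and was left out of the fit with a lane term. Genotype and lane therefore cannot be told apart in the LPS groups beyond 1 lane 2 library of KO dex, while dex+LPS against LPS lies within a lane in each genotype. The 4 KO dex+LPS libraries stood apart over the whole table: genes raised and genes lowered over 2-fold by dex+LPS against LPS in WT both changed in KO by about the same percentage of the WT difference, 35.6% and 34% at the median.

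In untreated WT macrophages, compared per kilobase of exon, Idh1 had the highest level of the 10 at 158.3 CPM per kb. Mdh1 followed at 54.8 CPM per kb, and Cs, Idh3b, Ogdh, Idh3g and Mdh2 lay between 29.1 CPM per kb and 34.1 CPM per kb. Idh2 at 16.9, Fh1 at 14.1 and Idh3a at 4.71 CPM per kb were lowest. The catalytic subunit of the NAD-dependent enzyme was thus the lowest of the 10 on this scale. The length used is that of all annotated exons merged, not of the transcript expressed, so the places of genes are approximate. With LPS the order changed. Mdh2 rose to the first place from the seventh, where it lay close to Ogdh at 29.8 and Idh3g at 29.4 CPM per kb. Its level with LPS was 80.3 CPM per kb, above Idh1 at 66.0 CPM per kb. Mdh1 went from the second place to the sixth at 24.9 CPM per kb. With dex+LPS Mdh2 stayed first at 113.1 CPM per kb and Idh3a moved from the last to the eighth place at 22.5 CPM per kb.

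**Figure D1:**
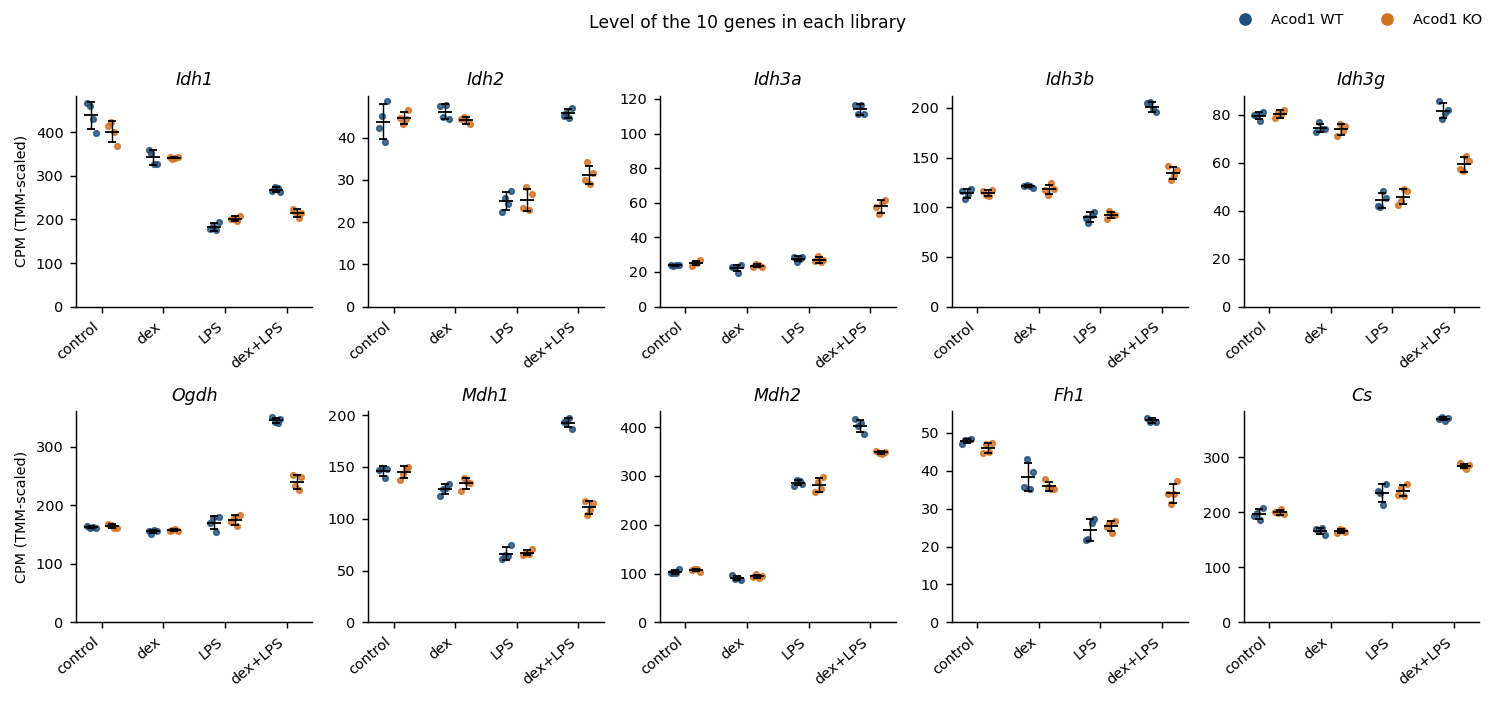
Level of each of the 10 genes in all 32 libraries, in CPM on TMM-scaled library sizes, by genotype and treatment. Points are libraries, dashes are group means and bars with caps are the SD over 4 libraries. Mdh2 is higher in every LPS library than in any library without LPS, and Idh3a stands apart with dex+LPS, more so in WT than in KO.

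The first question was what LPS alone did to these genes. In WT macrophages 6 of the 10 fell, 3 rose and 1 did not pass the test at an adjusted p under 0.05, where 75.7% of all genes tested were called, 37.4% higher and 38.3% lower. The median log2 fold change of the 10 was -0.58 beside -0.02 over all genes. The genes that fell include the cytosolic Idh1 and Mdh1, and the largest rise was that of Mdh2.

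Mdh1 and Mdh2 moved in opposite directions. Mdh1 was at 147.4, 148.8, 139.1 and 148.0 CPM in the control libraries and at 60.8, 65.3, 64.3 and 74.9 CPM with LPS. It fell by 1.14 on the log2 scale (SE 0.0460, adjusted p 1.78e-27). Mdh2 was at 101.2, 102.0, 101.1 and 110.0 CPM in control and, with LPS, at 279.5, 291.0, 289.2 and 284.0 CPM (log2 fold change 1.47, SE 0.0366, adjusted p 2.24e-36). The 4 LPS libraries lay below all control libraries for Mdh1 and above all of them for Mdh2. The ratio of Mdh1 to Mdh2 per exon length went from 1.89 ± 0.0772 in control to 0.310 ± 0.0286 with LPS (SD, n = 4). On this scale the cytosolic form was the higher without LPS and the mitochondrial form with it.

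Among the isocitrate dehydrogenases, both NADPH-making enzymes fell. Idh1 was at 466.5, 459.4, 430.4 and 398.7 CPM in control and, with LPS, at 177.0, 185.9, 175.2 and 194.0 CPM, a fall by 1.26 on the log2 scale (SE 0.0423, adjusted p 6.46e-31). Idh2 fell from 43.7 ± 4.14 to 24.9 ± 2.16 CPM (log2 fold change -0.81, SE 0.0637, adjusted p 3.00e-16). No LPS library of either gene reached the lowest control library. The subunits of the NAD-dependent enzyme did not move as one. Idh3g fell by 0.84 (adjusted p 4.64e-22) and Idh3b by 0.34 on the log2 scale (adjusted p 8.27e-11), while Idh3a rose by 0.22 (SE 0.0595, adjusted p 0.00106). The ratio of Idh3a to Idh3g per exon length was 0.160 ± 0.00245 in control and 0.335 ± 0.0224 with LPS.

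Fh1 fell from 47.8 ± 0.624 to 24.3 ± 2.89 CPM (log2 fold change -0.98, adjusted p 1.26e-19), and Cs rose from 196.8 ± 8.94 to a range of 213.3 CPM to 251.6 CPM with LPS (log2 fold change 0.26, adjusted p 3.41e-08). Ogdh was at 162.8 ± 1.94 CPM in control and 170.7 ± 11.2 CPM with LPS, overlapping groups with a log2 fold change of 0.07 (95% interval -0.01 to 0.14, adjusted p 0.0981). It was called higher with RLE size factors (adjusted p 0.0331), by DESeq2 (adjusted p 0.0295), in lane 3 libraries alone (adjusted p 0.00478) and without WT LPS replicate 3 (adjusted p 0.00350). Without normalization, which moved the median log2 fold change of all genes to -0.28, the small rises turned: Idh3a was at -0.04 and Cs at -0.003, neither called, and Ogdh was lower at -0.19. In that setting 1 of the 10 genes was called higher and 7 lower, and the split over all genes was 3863 higher and 7463 lower, against 5393 and 5530 with TMM. The median of all genes moved to -0.27 in KO as well, to -0.20 for WT and -0.21 for KO dex+LPS against control, and to 0.10 for WT dex+LPS against LPS.

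KO macrophages gave similar values for LPS against control, with 3 of the 10 genes higher and 6 lower where 36.8% of all genes were called higher and 39.3% lower. The log2 fold changes were -1.12 for Mdh1, 1.39 for Mdh2, -0.99 for Idh1, -0.82 for Idh2, -0.81 for Idh3g, -0.31 for Idh3b, -0.86 for Fh1 and 0.26 for Cs. Ogdh was called higher by 0.09 (adjusted p 0.0345), with overlapping groups. That call was lost with a lane term (adjusted p 0.226), without the filter (adjusted p 0.111) and without KO control replicate 3 or 4 or KO LPS replicate 2 or 4, and the value turned to -0.15 without normalization, where Cs was not called at 0.02. Idh3a was not called at 0.09 (adjusted p 0.141), was called higher with RLE size factors and by DESeq2 (0.13, adjusted p 0.0444 and 0.0474), and was at -0.15 without normalization.

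**Figure D2:**
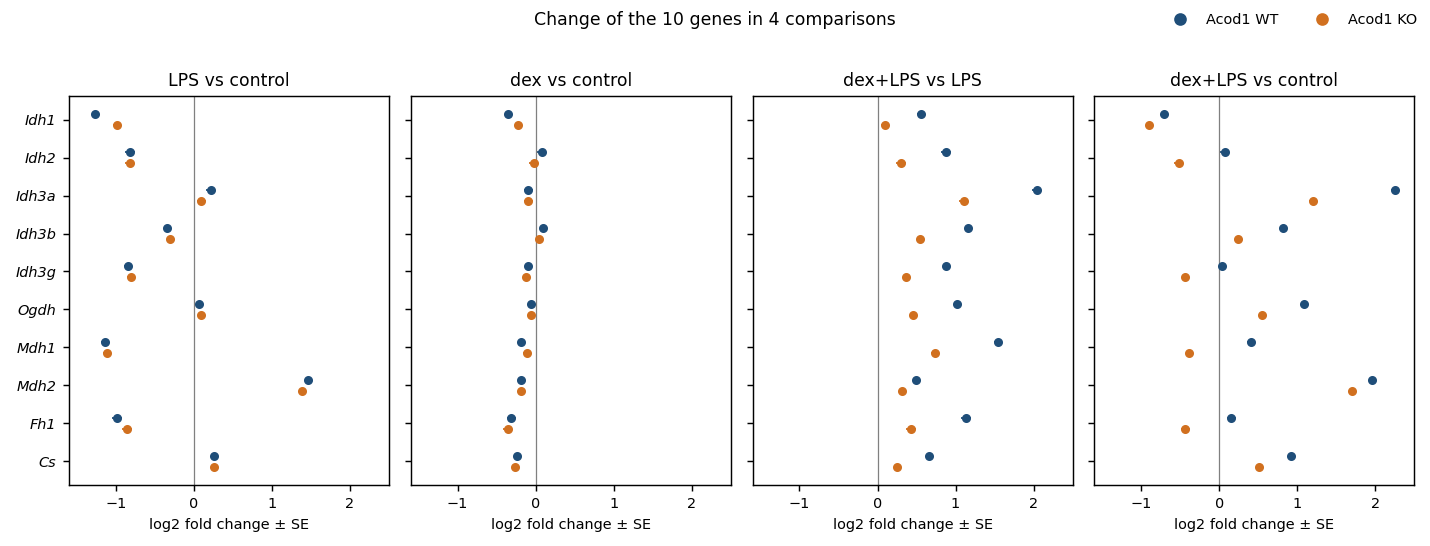
Log2 fold changes of the 10 genes with their standard errors, for LPS against control, dexamethasone against control, dex+LPS against LPS and dex+LPS against control, in WT and KO; many error bars are smaller than the points. Dexamethasone alone moved the genes by at most 0.36 in size, whereas with LPS present all 10 WT values lie at or above that of Mdh2 (0.50) and each gene's KO value lies below its own WT value.

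The second comparison was dexamethasone alone. In WT, 5 of the 10 genes fell and none rose, where 28.2% of all genes tested were called lower and 21.2% higher. The changes were small. Idh1 went from 438.7 ± 30.9 to 342.4 ± 16.6 CPM (log2 fold change -0.36, adjusted p 1.81e-10), Fh1 fell by 0.31, Cs by 0.24, Mdh2 by 0.19 and Mdh1 by 0.18 on the log2 scale. The 3 subunits of the NAD-dependent enzyme, Idh2 and Ogdh did not pass the test. Idh3b was nearest at 0.09 (95% interval 0.01 to 0.17, adjusted p 0.0503), and was called in 8 of 17 alternative settings. Idh3g was at -0.10 (95% interval -0.18 to -0.01, adjusted p 0.0674). The groups of Idh3b, Idh3g and Ogdh did not overlap, and the share of all genes for which this held is not given here. In KO, 6 fell and none rose where 27.6% of all genes were called lower and 20.9% higher: Fh1 by 0.36, Cs by 0.27, Idh1 by 0.23, Mdh2 by 0.19, Idh3g by 0.12 (adjusted p 0.0177) and Mdh1 by 0.11 (adjusted p 0.0247). The calls of Idh3g and Mdh1 were lost in the lane 3 libraries alone (adjusted p 0.0630 and 0.0664). Leaving out KO control replicate 4 or KO dex replicate 1 also ended both calls, and leaving out KO control replicate 3 that of Mdh1.

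With LPS present, dexamethasone went with higher levels of all 10 genes. In WT, dex+LPS against LPS gave 10 of 10 called higher, where 34.6% of all genes tested were called higher and 34.5% lower. The median log2 fold change of the 10 was 0.95 beside 0.01 over all genes. All 10 groups were without overlap, as were 60.5% of all genes. This comparison shares the WT LPS libraries with the one against control, so the genes that had fallen with LPS and those here are not independent.

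Idh3a had the largest change of the 10. It was at 28.6, 25.8, 27.8 and 28.8 CPM with LPS and at 116.8, 111.1, 116.5 and 111.4 CPM with dex+LPS, a log2 fold change of 2.04 (SE 0.0523, adjusted p 2.24e-35), and 3.56% of all genes tested had a higher one. In the 6 groups without the combination, every library lay between 19.4 CPM and 29.1 CPM. The 2 partner subunits rose less, Idh3b from 90.0 ± 4.69 to 201.3 ± 5.06 CPM (1.16 on the log2 scale) and Idh3g from 44.2 ± 3.02 to 81.5 ± 3.14 CPM (0.88). The ratio of Idh3a to Idh3g per exon length reached 0.745 ± 0.0228 and that of Idh3a to Idh3b 0.382 ± 0.0133, the highest of the 8 groups for both.

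Mdh1 went from 60.8, 65.3, 64.3 and 74.9 CPM with LPS to 193.6, 193.0, 196.7 and 186.7 CPM with dex+LPS (log2 fold change 1.54, SE 0.0456, adjusted p 9.25e-33). Mdh2 went from 285.9 ± 5.19 to 402.9 ± 12.5 CPM (0.50, SE 0.0343, adjusted p 5.79e-18). Both malate dehydrogenases rose, and the ratio of Mdh1 to Mdh2 per exon length was 0.639 ± 0.0111, between its values in LPS and in control. Fh1 rose by 1.14, Ogdh by 1.02, Idh2 by 0.88, Cs by 0.66 and Idh1 by 0.55 on the log2 scale.

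Set against untreated WT cells, the combination did not return the genes to a common level. Idh3a (2.25 on the log2 scale), Mdh2 (1.96), Ogdh (1.09), Cs (0.91), Idh3b (0.82), Mdh1 (0.40) and Fh1 (0.16, adjusted p 0.0132) were above control, 7 of 10 where 34.5% of all genes were called higher. Idh1 was below control at -0.71, with 264.5, 274.5, 271.9 and 263.9 CPM, where 37.8% of all genes were called lower. Idh2 at 0.07 (95% interval -0.05 to 0.19) and Idh3g at 0.04 (-0.05 to 0.12) were not called, except in lane 3 libraries alone (adjusted p 0.0481 and 0.0434). Without normalization Fh1 was at -0.006 and not called, and Idh3g was called lower at -0.12.

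The effect of dexamethasone differed between cells with and without LPS. In WT the difference between both log2 fold changes was positive and called for all 10 genes, from 0.69 for Mdh2 to 1.72 for Mdh1 and 2.13 for Idh3a, where 32% of all genes were called higher and 28.4% lower. In KO it was also positive and called for all 10, from 0.32 for Idh1 to 0.85 for Mdh1 and 1.2 for Idh3a, where 25.7% were called higher and 16.2% lower.

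**Figure D3:**
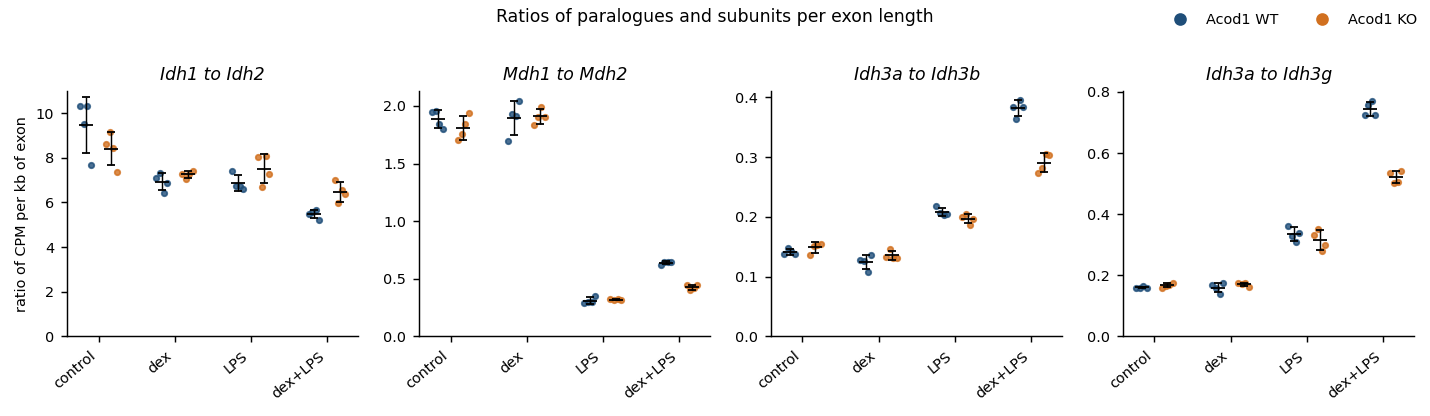
Ratios of levels per exon length in each library, in CPM per kb over CPM per kb, by group. Points are libraries, dashes are group means and bars with caps are the SD over 4 libraries. Mdh1 to Mdh2 is near 1.9 without LPS and at 0.310 and 0.319 with LPS in WT and KO, and the Idh3a ratios are highest with dex+LPS.

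The knockout was compared with WT within each treatment. In control and in dexamethasone alone, 0 of the 10 genes were called by edgeR, where 0.541% and 0.901% of all genes were called. The log2 differences ran from -0.13 (Idh1, adjusted p 0.189) to 0.08 in control and from -0.10 to 0.08 in dexamethasone. At an unadjusted p under 0.05 there was 1 gene in control, Idh1, and 0 in dexamethasone, and DESeq2 called 0 in both. The groups of each gene overlapped in both treatments. Leaving out WT control replicate 4 made 1 call, Idh1 lower in KO control (adjusted p 0.0264). With LPS, 1 of the 10 was called, where 10.2% of all genes were. Idh1 was at 201.6, 201.7, 196.4 and 208.4 CPM in KO and at 177.0, 185.9, 175.2 and 194.0 CPM in WT, a log2 difference of 0.14 (SE 0.0429, adjusted p 0.0223). The call was lost with a lane term (0.135, adjusted p 0.645), which rests on 1 lane 2 library outside the LPS groups. It was also lost on the 2 groups alone (adjusted p 0.0670) and without WT LPS replicate 1 or 3 or KO LPS replicate 4. The change of Idh1 with LPS was smaller in KO than in WT by 0.27 (adjusted p 0.00269), the 1 such call among the 10 where 3.72% of all genes were called, and it too was lost with a lane term (0.28, adjusted p 0.193).

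With dex+LPS all 10 genes were lower in KO than in WT, where 27.9% of all genes were called lower and 28.5% higher. The median log2 difference of the 10 was -0.54 beside -0.005 over all genes. Idh3a was at 57.3, 53.2, 59.8 and 61.7 CPM in KO, against the WT libraries between 111.1 CPM and 116.8 CPM (log2 difference -0.98, SE 0.0481, adjusted p 3.43e-23). Mdh1 was at 117.1, 103.6, 108.4 and 115.2 CPM in KO, against 186.7 CPM to 196.7 CPM in WT (-0.79, SE 0.0434, adjusted p 1.98e-21). For these genes every KO library lay below every WT library, as it did for the other 8 and, in one direction or the other, for 51.3% of all genes. Fh1 was lower by 0.65, Idh3b by 0.58, Idh2 by 0.55, Ogdh by 0.53, Idh3g by 0.46, Cs by 0.38, Idh1 by 0.32 and Mdh2 by 0.21 on the log2 scale. All 10 remained called with a lane term, from -0.92 for Idh3a and -0.80 for Mdh1 to -0.23 for Mdh2, while the count over all genes went from 8137 to 4834. Genes of the mitochondrial chromosome took 0.574% ± 0.0397 of counts in WT dex+LPS and 0.348% ± 0.0191 in KO dex+LPS (SD, n = 4), without overlap, beside 0.341% ± 0.0225 in WT LPS and 0.280% ± 0.0326 in KO LPS. This percentage was thus higher with dex+LPS than with LPS alone at the mean of both genotypes and lower in KO, and its part in the result was not tested.

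Within KO, dex+LPS against LPS gave 9 of 10 genes higher, where 20.8% of all genes were called higher and 17.3% lower, with a median of 0.40 beside -0.002 over all genes. Idh3a rose by 1.10 (adjusted p 1.85e-22), Mdh1 by 0.73, Idh3b by 0.55, Ogdh by 0.46, Fh1 by 0.42, Idh3g by 0.37, Mdh2 by 0.31, Idh2 by 0.30 and Cs by 0.25 on the log2 scale. Idh1, at 224.1, 217.9, 203.3 and 215.2 CPM with dex+LPS and overlapping the LPS libraries, was not called at 0.09 (95% interval 0.01 to 0.18, adjusted p 0.0864). It was called in 3 alternative settings: without normalization (0.12, adjusted p 0.0214), on the compared groups alone (0.09, adjusted p 0.0338) and without KO dex+LPS replicate 3 (0.12, adjusted p 0.0365). Against KO control, 5 genes were higher where 37.5% of all genes were: Mdh2 at 1.70, Idh3a at 1.2, Ogdh at 0.54, Cs at 0.51 and Idh3b at 0.24, the last of which was not called without normalization (0.03). The other 5 were lower where 36.5% of all genes were: Idh1 at -0.90, Idh2 at -0.52, Idh3g at -0.44, Fh1 at -0.44 and Mdh1 at -0.39.

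The difference between the genotypes in the effect of dexamethasone under LPS was tested directly. It was negative and called for all 10 genes, where 21.5% of all genes tested were called lower and 23.9% higher. The values ran from -0.19 for Mdh2 (SE 0.0486, adjusted p 0.00136) to -0.81 for Mdh1 (SE 0.0651, adjusted p 5.10e-15) and -0.93 for Idh3a (SE 0.0760, adjusted p 7.34e-15). Without LPS the corresponding difference was called for 0 of the 10 genes and for 0 genes of the whole table, by edgeR and by DESeq2. At an unadjusted p under 0.05 there was 1 of the 10, and there were 617 genes in the whole table.

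Most genes called in WT had a smaller effect of dexamethasone under LPS in KO, members of the cycle or not. The log2 fold change in KO divided by that in WT was 0.435 at the median of the 10, from 0.165 for Idh1 to 0.625 for Mdh2, beside a median of 0.425 over the 4997 genes called higher in WT. Of those genes 97.5% had a smaller log2 fold change in KO. For the 4981 genes called lower in WT the median was 0.279, and 99.4% changed less in KO. Both sets were chosen by their call in WT, which tilts these values toward smaller effects in KO. The size of that tilt was not tested. Fkbp5, which glucocorticoids are known to induce, was at 681 ± 12.1 CPM in WT dex+LPS and at 262 ± 29.3 CPM in KO dex+LPS, whereas with dexamethasone alone it was at 878 ± 12.8 CPM and 836 ± 24.6 CPM. Its log2 fold change under LPS in KO divided by that in WT was 0.794, above the values of all 10 enzymes.

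The percentage given above for the 4 KO dex+LPS libraries touches each value that uses them. On the linear CPM scale, the difference between dex+LPS and LPS in KO was 35.6% of that in WT at the median of 987 genes raised over 2-fold in WT, with quartiles of 30.3% and 40.1%. For 980 genes lowered over 2-fold it was 34%, with quartiles of 28.8% and 38.9%. Raised and lowered genes thus gave nearly the same percentage. Per library the medians were 35.4%, 31.8%, 34.7% and 40.02% for raised genes and 34.6%, 31.2%, 31.5% and 37.9% for lowered ones, with the highest in replicate 4 for both. The 10 enzymes had a median of 35.5%, and 8 of them lay between 28.2% and 38.1%. Idh1, Idh2, Idh3g, Mdh2 and Cs rose by less than 2-fold in WT and so fall outside the set of raised genes. Idh1 was lower at 15.3% and Mdh2 higher at 57.3%. These had the smallest changes of the 10 in WT on the log2 scale (0.55 and 0.50), but not in CPM. By library Idh1 ran from 1.45% to 25.8% and Mdh2 from 53.9% to 60.7%. Fkbp5 was at 37.7%. The 175 genes lowered over 8-fold in WT, with a median log2 fold change of -3.91, had a median of -0.63 in KO with 5th and 95th percentiles of -0.79 and -0.44. For the 161 genes raised over 8-fold in WT the median was 4.14 in WT and 2.79 in KO, with KO percentiles of 1.60 and 6.97. In bulk RNA, a response of part of the cells, a partial response of every cell and RNA of both kinds in a library cannot be told apart, and neither can fewer cells of a type and less RNA per cell. The summed macrophage markers moved the same way, with 29653 CPM for WT dex+LPS, 21286 CPM for KO dex+LPS, 16398 CPM for WT LPS and 17614 CPM for KO LPS, and their part in these results was not tested.

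**Figure D4:**
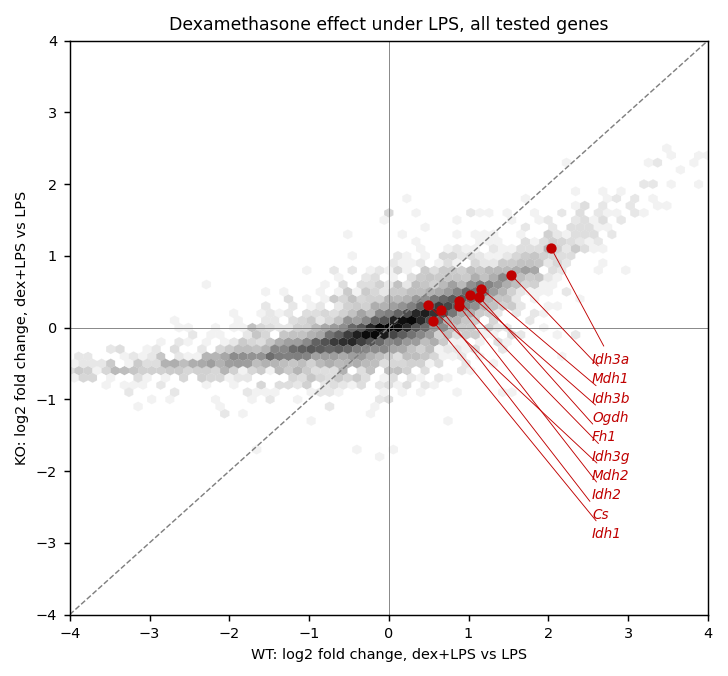
Log2 fold change of dex+LPS against LPS in KO (vertical) against WT (horizontal) for all 14427 genes tested, shaded by the number of genes, with the 10 enzymes in red; the dashed line marks equal change, and 328 genes lie beyond the axis limit of 4. The red points lie below the line and within the body of all genes, and genes strongly lowered in WT form a band near -0.6 in KO.

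The rest of the cycle was read from a textbook list of 14 genes, of which 12 passed the filter. With LPS in WT, 7 rose and 4 fell, with a median of 0.18. The succinate dehydrogenase subunit Sdhd rose by 0.65, while Suclg2, a subunit of the GDP-forming succinyl-CoA ligase, fell by 1.08 and the catalytic subunit Sdha by 0.44 on the log2 scale. With dex+LPS against LPS in WT, 11 rose and none fell, with a median of 0.50. Sdha rose by 1.10 and Dld, the dehydrogenase subunit shared by the 2-oxo acid complexes, by 0.98. In KO 10 of the 12 rose, with a median of 0.22. Against WT in dex+LPS 11 of the 12 were lower in KO, among them Dld at -0.62 and Sdha at -0.57. The backgrounds of all genes called are those given above.

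Of 17 carriers and enzymes that feed or drain the cycle, 16 passed the filter. With LPS in WT 6 rose and 8 fell, with a median of -0.07, where 37.4% of all genes were called higher and 38.3% lower. Pyruvate carboxylase Pcx rose by 2.66 and the malic enzymes Me1 and Me2 by 2.15 and 1.92 on the log2 scale. The aspartate-glutamate carrier Slc25a13 fell by 2.26 and glutamate dehydrogenase Glud1 by 1.37. With dex+LPS against LPS in WT 12 rose and 4 fell, with a median of 0.39, where 34.6% of all genes were called higher and 34.5% lower. The dicarboxylate carrier Slc25a10 rose by 1.84, from 73.9 ± 3.03 to 263.7 ± 10.4 CPM, and Slc25a13 by 2.05. Me2 fell by 1.45, from 130.9 ± 9.84 to 48.0 ± 2.23 CPM, and Pcx by 0.50. In KO 9 rose and 3 fell, where 20.8% of all genes were called higher and 17.3% lower. Me2 fell by 0.40 in KO, and its effect differed from that in WT by 1.05 (adjusted p 2.55e-17).

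Across the 8 group means the patterns of the 10 genes fell into unlike shapes. Pearson's r between Idh3a and Ogdh was 0.998, and that between Idh3a and Idh1 was -0.33, as a description over 8 points that share the same libraries. The genes nearest in pattern to Idh3a and to Ogdh were the same pair, Atp5a1 at 0.995 and 0.999 and Ppp1cb at 0.994 and 0.998. Atp5a1 encodes a subunit of ATP synthase. The nearest to Mdh1 was Ppat (0.996), to Cs Nup160 (0.998), to Fh1 Dhcr7 (0.997), to Idh1 Ccnq (0.998), to Idh2 Trappc11 (0.997), to Idh3b Tmem106b (0.994) and to Idh3g Trmt1 (0.997).

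The order of levels over the 8 groups was made for the 10 genes only, so its counts have no share over all genes beside them. Of all genes, 60.5% were without overlap between dex+LPS and LPS in WT, and 51.3% between KO and WT in dex+LPS. WT dex+LPS was the highest group for 7 of the 10 genes without overlap with the next, and for Idh3g with overlap. Idh1 was highest in WT control, overlapping KO control. Idh2 was highest in WT dex, at the top of a run of 5 groups within which neighbours overlapped. WT LPS was the lowest group for 6 genes, Idh1, Idh2, Idh3b, Idh3g, Mdh1 and Fh1, and overlapped KO LPS for all of them except Idh1. For Idh3a, Ogdh and Mdh2 the lowest was WT dex and for Cs KO dex, each overlapping the same treatment in the other genotype.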

How the data were processed

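RNA was sequenced in 32 libraries of bone marrow-derived macrophages, 8 groups of 4, grouped by genotype and treatment as the labels give them. The deposited table holds raw counts per gene, which the authors made with featureCounts 2.0.0 on paired reads over exons, unstranded, with the GENCODE vM32 annotation, per the file headers. Those options leave out reads that map to several places or genes. The submitters' processing notes name STAR, GRCm38 and mm10. As vM32 was made for a newer assembly, and 1446 of 52029 matched identifiers had GRCm38 coordinates, gene positions are those of the deposited table. Identifiers without a symbol (4924) held 0.846% of counts.

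Counts were fitted with edgeR 4.0.16 in R 4.3.3: default filterByExpr (14427 genes), TMM, 8 group means fitted together (24 residual degrees of freedom), and quasi-likelihood F tests of 17 contrasts, two-sided, with Benjamini-Hochberg adjustment over all genes tested and calls at an adjusted p under 0.05. Each standard error is the fold change over the root of its F statistic. Alternatives were DESeq2 1.42.0, RLE size factors, no normalization, no filter, an adjusted p under 0.01, the compared groups alone, a replicate block, a lane term, lane 3 libraries alone, and each library left out in turn. The fit was tested on simulated data. The 48 pairs of libraries within groups all differed by more than sampling noise (2.02 to 17.4 chi-square per degree of freedom).

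The 10 genes, the lists and the comparisons were chosen with earlier results of these data known. Named genes are all 10, listed members with the smallest adjusted p, and the gene nearest in pattern to each of the 10 by Pearson's r over the 8 group means. A few genes that this rule or the lists cover are not reported here. The percentage of the WT difference reached in KO was added after the data had been seen, for genes whose mean reached 5 CPM in some group.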

Additional observations from a re-analysis of the deposited data

Results flagged for a closer look

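Within groups of 4 libraries, 1 library was far from the other 3 in 2 of 80 gene-by-group sets, where chance gives about 1 in 20. Mdh1 was at 139.1 CPM in WT control replicate 3, below the other 3, and Mdh2 was at 110.0 CPM in WT control replicate 4, above the other 3. Both lie far from the LPS groups.

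The effect of dexamethasone differed between cells with and without LPS by a test of the difference itself. In WT the log2 differences were 0.91 for Idh1, 0.80 for Idh2, 2.13 for Idh3a, 1.07 for Idh3b, 0.98 for Idh3g, 1.08 for Ogdh, 1.72 for Mdh1, 0.69 for Mdh2, 1.45 for Fh1 and 0.90 for Cs. In KO they were 0.32 for Idh1, 0.33 for Idh2, 1.2 for Idh3a, 0.50 for Idh3b, 0.49 for Idh3g, 0.52 for Ogdh, 0.85 for Mdh1, 0.50 for Mdh2, 0.78 for Fh1 and 0.52 for Cs.

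The genotypes differed, KO minus WT, in the effect of dexamethasone under LPS. The log2 values were -0.46 for Idh1, -0.58 for Idh2, -0.93 for Idh3a, -0.61 for Idh3b, -0.51 for Idh3g, -0.56 for Ogdh, -0.81 for Mdh1, -0.19 for Mdh2, -0.71 for Fh1 and -0.41 for Cs. They rest on the KO dex+LPS libraries, in which raised and lowered genes reached 35.6% and 34% of the WT difference at the median. In the effect of LPS, Idh1 differed by 0.27, a call lost with a lane term.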

How the results depend on the processing

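Of 3210 values of the 10 genes under other settings, 3156 stayed on their side of the threshold, 27 lost the call, 20 gained one, and 7 that were called in at least 1 of both settings turned in sign. Among the 3156 were 97 values called in neither setting that changed sign, under several settings. The 128 values of ratios were group means with a library left out. Such a mean always shifts by less than the spread between the libraries of its group. These values therefore cannot show whether the ratios depend on the processing. The 7 turned without normalization: with LPS in WT, Idh3a at -0.042, Ogdh at -0.19 and Cs at -0.0033; with dex+LPS against control in WT, Idh3g at -0.12 and Fh1 at -0.0060; with LPS in KO, Idh3a at -0.15 and Ogdh at -0.15. The cause was not tested beyond the shift of all genes given in the report.

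Counts over all genes that moved by over 1.5 times were as follows. For KO against WT in control (78) there were 38 at an adjusted p under 0.01, 137 without the filter and 121 on the compared groups alone, and 47 to 73 with a library left out. For dexamethasone (130) there were 62, 201 and 401 in the same order, 75 with a lane term, 82 in lane 3 libraries alone, and 69 to 119 with a library left out. For LPS (1468) there were 829 at an adjusted p under 0.01, 667 on the compared groups alone and 112 with a lane term, and of the 10 genes 0 in place of 1 in each of these; leaving out a library gave 0 to 1. For dex+LPS (8137) a lane term gave 4834. For the difference in the LPS effect (536) there were 260, 314 and 113, and of the 10 genes 0 in place of 1 with a lane term. For the difference in the dexamethasone effect (0) there were 6 without the filter, 1 on the compared groups alone and 0 to 3 with a library left out. Of the 10 genes in control, leaving out a library gave 0 to 1. The lane term rests on 1 lane 2 library outside the LPS groups and leaves out KO control replicate 1, whose files were merged.

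Replicate numbers were not taken to pair the libraries: 0 of 112 same-number pairs of groups had deviations correlated above 0.1 (-0.0287 to 0.0596, median 0.00764, beside a median of -0.00247 for unlike numbers). As a hint from the data only, 18 of 32 libraries were nearest to their own number, where numbers without meaning would give about 8. With a replicate block the counts of the 10 genes were unchanged in every contrast except dexamethasone in WT, where Idh3b was called at 0.09 (adjusted p 0.0468) and the count went from 5 to 6.

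Depth was at least 386 counts for each of the 10 genes in each library. Counting error covers reads only, and says nothing of the amount of RNA per cell.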
